A study of Homo sapiens with 12 samples.

Results

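The genes described here encode 5 keratins (KRT7, KRT8, KRT18, KRT19 and KRT34), the fibroblast filament protein vimentin (VIM), nestin (NES), and plectin (PLEC), which crosslinks filaments. They are 8 of the 38716 gene symbols in the deposited tables and were taken by name. KRT19 was chosen by its fold change in ribosome footprints between senescent and proliferating cells, which was among the strongest losses in these same libraries, so its values are given as a description, with no test. The other 7 genes were tested within fits across all genes.

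The cells were IMR90, a primary human fibroblast line from normal fetal lung. They were compared while proliferating (Pro) and after passaging to replicative exhaustion, when they no longer divide and are called senescent (Sen). There were 3 lysates per state, described in the labels as independently grown, and Ribo-seq and RNA-seq were both made from every lysate. All cells were harvested with cycloheximide, which arrests elongating ribosomes, and the RNA-seq libraries were poly(A)-enriched. The growth protocol lists 2 isolates of IMR90 and does not assign them to libraries, so an effect of isolate cannot be told apart from the effect of state. The proliferating RNA-seq tables also bear a name that looks like DMSO, a solvent absent from the labels, and its part in the results was not tested.

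Ribo-seq counts ribosome-protected fragments (RPF), and here the RPF level of a gene is its reads in the coding sequence (CDS). The mRNA level is its RNA-seq reads in the 5′ UTR, CDS and 3′ UTR. Both are given as CPM, the standard edgeR unit of reads scaled to library size, here with TMM factors within a library type. Translational efficiency (TE) is the log2 ratio of RPF to mRNA in a lysate, after adding 0.5 to each count. Fold changes are log2 values of Sen over Pro, and a gene was called changed at an adjusted p under 0.15.

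RNA-seq libraries held 7902427 to 14144455 mRNA reads. Ribo-seq libraries Pro 1 and Sen 2 held only 54421 and 54708 CDS reads, against 583798 to 1718521 in the other 4. The smallest resolved level, 3 reads, was therefore 55.1 CPM in Pro 1 and 54.8 CPM in Sen 2 before TMM scaling. In the other 4 it was at most 5.14 CPM. The CDS share of all Ribo-seq reads was 34.4, 84.4 and 88.8% in Pro 1, 2 and 3. In Sen 1, 2 and 3 that share was 77.8, 15.0 and 54.7%. Its part in the results below was not tested. All 9 fibroblast markers examined were detected in both library types, and their summed mRNA level was 24776 to 28290 CPM in Pro and 22868 to 26058 CPM in Sen. Of 9 epithelial markers, 4 (ESRP1, GRHL2, SFTPC and NKX2-1) were at 0 in all RNA-seq libraries, and the 9 summed to 1.31 to 2.80 CPM in Pro and 1.61 to 2.53 CPM in Sen. Mesothelial markers (7, of which WT1 and ITLN1 were at 0) summed to 1.46 to 1.97 CPM in Pro and 1.90 to 2.53 CPM in Sen. The summed level of smooth muscle markers (5, none at 0) was higher in senescent cells, at 1046 to 1173 CPM in Pro and 1524 to 1542 CPM in Sen. ACTG2 was the largest of them, at up to 1117 CPM, and DES did not rise (50.7 CPM in Pro and 48.7 CPM in Sen). The endothelial list (6, with CDH5 at 0) was also higher, at 54.5 to 62.8 against 93.1 to 105.8 CPM, and TEK made up most of it. The immune list (5, with CD3E at 0) was at 19.5 to 21.6 against 32.7 to 35.4 CPM, mostly CD68. The part of these shifts in the results below was not tested, and in bulk lysates fewer cells of a type and less RNA per cell cannot be told apart.

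Intermediate filaments are ropelike polymers that give a cell its resistance to stretch. Keratins are obligate partners, since a type I chain (KRT18, KRT19, KRT34) must pair with a type II chain (KRT7, KRT8) before a filament can form. KRT8 with KRT18 is the first pair made in simple epithelia, KRT7 and KRT19 belong to ducts and mesothelium, and KRT34 is a keratin of hair and nail. Vimentin, a type III protein, builds filaments on its own and is the standard filament of fibroblasts and other mesenchymal cells. Nestin, a type IV protein best known from neural progenitors, needs vimentin or a similar partner to assemble. Plectin, a giant member of the plakin family, ties filaments to actin, microtubules and adhesion sites.

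Keratin genes resemble each other and have many processed pseudogene copies, which bears on the keratin footprint values that follow. Footprints were selected at 28 to 32 nt, and the coding sequences were therefore cut into all windows of 30 nt and searched for in the other transcripts of the GENCODE annotation on GRCh37. A window found elsewhere was counted as shared. For KRT18, 958 of 1261 windows (76.0%) were shared with at least 1 other gene, and for KRT8, 1052 of 1504 (69.9%). KRT34 shared 390 of 1153 windows (33.8%), mostly with the hair keratins KRT33B, KRT31 and KRT33A, and KRT19 shared 174 of 1171 (14.9%). KRT7 shared 6.75%, PLEC 1.42%, VIM 0.511% and NES none of its 4834 windows. A read from a shared window can be given to more than 1 gene, and how the authors placed such reads is not given in the sources used here. The longest stretches shared with a symbol that the deposited tables also list are shown for 3 of the keratins. Capitals mark the stretch that is identical in both genes, and lower case marks flanking bases of the keratin itself.

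KRT18, shared with KRT18P55, GRCh37 chr12:53346015-53346110, plus strand, coding positions 1061 to 1156: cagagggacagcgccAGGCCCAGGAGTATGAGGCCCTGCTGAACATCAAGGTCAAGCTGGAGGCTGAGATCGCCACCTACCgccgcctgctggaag
KRT19, shared with KRT19P2, coding positions 389 to 459, across an exon junction: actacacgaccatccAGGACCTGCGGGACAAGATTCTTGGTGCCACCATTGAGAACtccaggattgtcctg
KRT34, shared with KRT33B, GRCh37 chr17:39538227-39538369, minus strand, coding positions 130 to 272: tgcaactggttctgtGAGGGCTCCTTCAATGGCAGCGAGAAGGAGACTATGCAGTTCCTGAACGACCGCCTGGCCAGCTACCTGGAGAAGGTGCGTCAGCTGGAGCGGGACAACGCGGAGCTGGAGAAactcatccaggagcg

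Coding positions are counted from 1 at the first base of the CDS. The identical stretch was 66 nt for KRT18, 41 nt for KRT19 and 113 nt for KRT34, each longer than a footprint.

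Of the 7 genes other than KRT19, all passed the filter on low counts for mRNA and 5 passed it for RPF and TE. KRT7 and KRT34 had too few footprints to be fitted. At the mRNA level NES and KRT34 rose, KRT8 and KRT18 fell, and KRT7, VIM and PLEC did not pass the threshold. KRT34 passed the filter only through Sen, so its call is not counted as support. Across all 12840 genes tested, 73.4% were called (35.9% higher and 37.5% lower). The 4 of 7 here, with KRT34 counted, thus lies below the background. At the RPF level NES rose, KRT8 and PLEC fell, and KRT18 and VIM did not pass, which makes 3 of 5 against a background of 54.3% (27.7% higher and 26.6% lower) of 7562 genes. For TE, PLEC fell and KRT18 rose, 2 of 5 against 9.65% (5.56% higher and 4.09% lower) of 7512 genes. The median fold change of the tested members was 0.12 for mRNA, 0.16 for RPF and 0.04 for TE, beside medians over all genes of -0.01, 0.01 and 0.01. The groups of 3 libraries did not overlap for 5 of 7 members in mRNA, KRT34 among them (background 67.7%). In RPF this held for 3 of 5 (32.7%) and in TE for 0 of 5 (16.3%). With the shallow lysates Pro 1 and Sen 2 left out, all 5 fitted members passed for RPF, where 53.7% of 9232 genes did, and 3 of 5 for TE, where 13.2% of 9169 did. With DESeq2, or without Pro 2, Pro 3 or Sen 3, 0 members passed for TE, and 26, 125, 177 and 152 of all genes did.

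**Figure D1:**
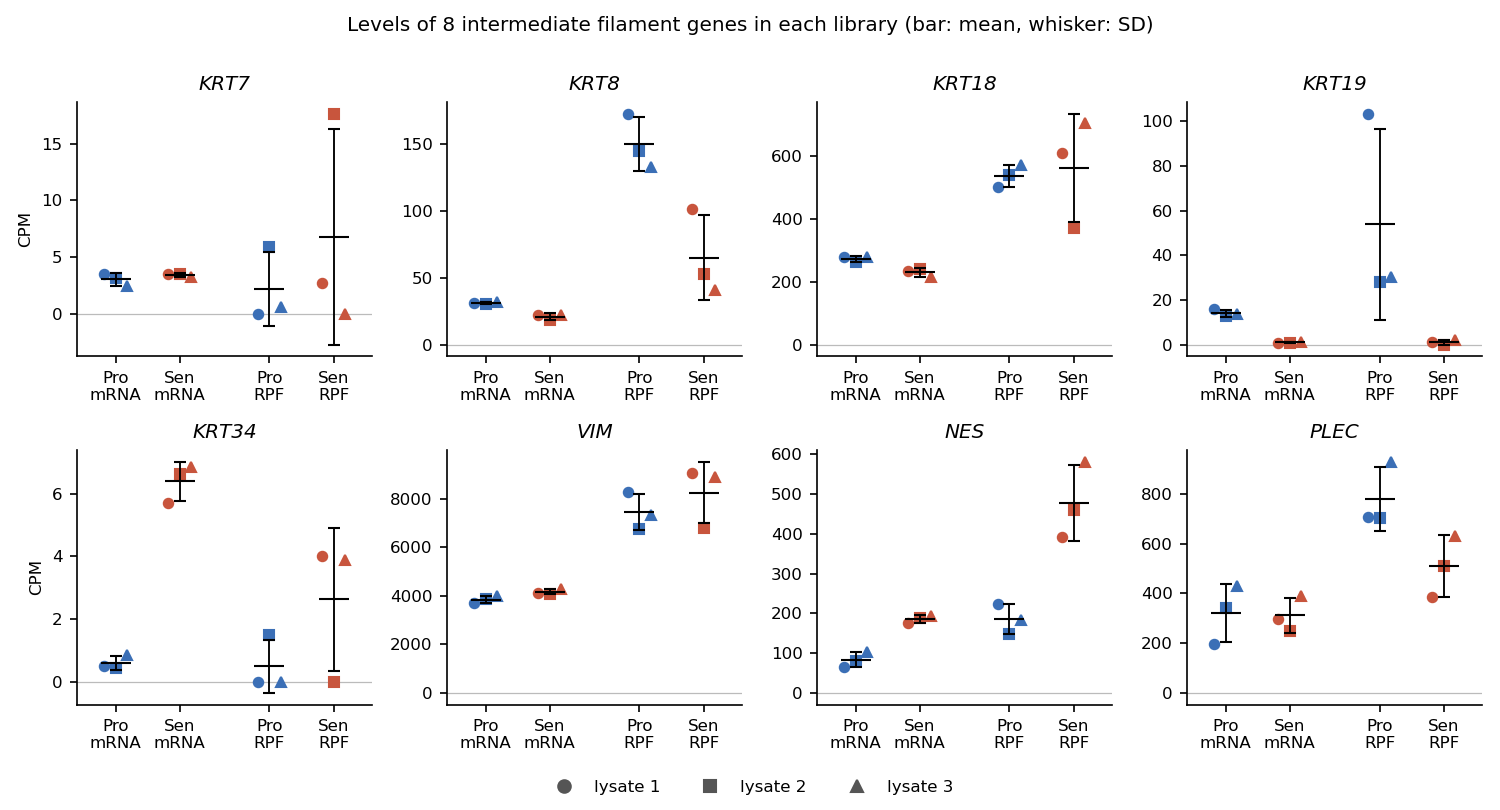
CPM of each gene in each library, with a separate axis for each gene, Pro in blue and Sen in red, mRNA on the left and RPF on the right of each panel. Points are libraries, shaped by lysate number, and bars and whiskers are the mean and SD of 3. KRT19 lies near 0 in all Sen libraries, KRT34 mRNA lies between 5.70 and 6.86 CPM in Sen against at most 0.843 in Pro, and the VIM points of both states lie close together.

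KRT19, the type I keratin of ducts, lies on chromosome 17 at 39679869 to 39684560 of GRCh37, minus strand. Its mRNA level was 16.0, 12.8 and 13.7 CPM in Pro 1, 2 and 3, and 0.739, 1.02 and 1.37 CPM in Sen 1, 2 and 3. These rest on 131, 149 and 146 reads in Pro and on 7, 14 and 15 reads in Sen. Every Pro library lay far above every Sen library. Its RPF counts were 6, 19 and 51 reads in Pro, which correspond to 103.3, 28.0 and 30.2 CPM. The Sen libraries held 2, 0 and 1 reads, or 1.34, 0 and 1.95 CPM. The high value of Pro 1 rests on 6 reads in a shallow library, and the 0 of Sen 2 has a floor of 54.8 CPM, so that library alone could not have resolved the level seen in Pro 2 or Pro 3.

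The fitted KRT19 change was -3.72 ± 0.20 (SE, n = 3 per state) for mRNA and -4.31 ± 0.57 for RPF on the log2 scale. Summed over the 3 libraries of a state, 76 footprints in Pro stood against 3 in Sen, a ratio of Pro to Sen of 21.6 with an exact 95% counting interval of 7.12 to 107.1. For mRNA the summed reads were 426 and 36, a ratio of 13.2 with an interval of 9.39 to 19.1. Both intervals cover counting error only and are not a test, since KRT19 was chosen for its footprint loss. The fitted TE change was -0.62 ± 0.92, smaller than its SE. In Sen, TE of this gene is not resolved, since with 0 footprints the value of 3.06 in Sen 2 comes from the added 0.5 alone.

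The genes with the pattern most like that of KRT19 were sought among the 7512 genes fitted in both layers, by the Euclidean distance between log2 CPM (prior count 2) centred within each library type over 12 libraries. The nearest was RARRES2, which encodes the secreted attractant chemerin, at a distance of 0.829, where the median gene lay at 6.68. Its fitted changes were -3.87 for mRNA and -4.43 for RPF. SLIT2, a secreted guidance protein, came next at 1.56 with changes of -2.66 and -3.57. CDCA7, a gene of dividing cells, followed at 1.96 with -2.56 and -2.84. Among the other members KRT8 came closest, at rank 456 with a distance of 5.02. No p is attached to these distances, because KRT19 was chosen for its pattern and all genes share the same libraries and depths.

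KRT18, the main type I keratin of simple epithelia, lies on chromosome 12 at 53342655 to 53346690, plus strand. The mRNA stood at 279, 261 and 279 CPM in Pro and 235, 241 and 214 CPM in Sen. Every Sen library lay below every Pro library, by a small margin. The fold change was -0.25 ± 0.07 with an edgeR adjusted p of 0.00424, a fall of 1.19-fold. Its footprints did not follow, at 499, 537 and 569 CPM in Pro and 609, 371 and 704 CPM in Sen. The low Sen value is that of the shallow library, with 21 reads. The RPF change was 0.17 ± 0.16 (edgeR adjusted p = 0.43), and the groups overlapped.

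TE of KRT18 was 0.87, 1.04 and 1.03 in Pro and 1.38, 0.66 and 1.72 in Sen. Sen 1 and Sen 3 lay above all Pro lysates and Sen 2 below them. The fitted TE change was 0.42 ± 0.16 with an edgeR adjusted p of 0.145, just under the threshold. The call was lost in 9 of 13 other settings, and without Sen 3 the change was 0.19 (edgeR adjusted p = 0.798). With Pro 1, Pro 2, Pro 3 or Sen 1 left out in turn the adjusted p was 0.189, 0.556, 0.552 and 0.494. Reads under the pseudogene symbol KRT18P55 amounted to 8.26 to 9.24% of the KRT18 mRNA reads but 24.4 to 48.4% of its footprints, with the highest share in Pro at 29.3%.

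KRT8, the type II partner of KRT18, overlaps it head to head on the opposite strand, at 53290971 to 53343738 of chromosome 12, with 525 nt of exon in common. In mRNA it was at 31.2, 30.4 and 31.8 CPM in Pro and 22.4, 18.2 and 22.3 CPM in Sen. The states did not overlap, and the change was -0.58 ± 0.10 (edgeR adjusted p = 2.89e-05). Its RPF level was 172, 145 and 133 CPM in Pro and 101, 53.0 and 40.9 CPM in Sen, from 10, 98, 224, 151, 3 and 21 reads. Again every Sen library was below every Pro library. The fitted RPF change was -0.79 ± 0.20 (edgeR adjusted p = 0.00124).

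The size of the KRT8 footprint loss depended on 1 library more than its call did. Without Sen 1 the change was -1.71 and without Sen 3 it was -0.50, and it passed the threshold under all 12 other settings, with the adjusted p at most 0.0872. TE of KRT8 was 2.53, 2.26 and 2.06 in Pro and 2.17, 1.76 and 0.91 in Sen, and the groups overlapped. The TE change of -0.39 ± 0.25 missed the threshold (edgeR adjusted p = 0.411), but without Sen 1 it was -1.21 and passed (edgeR adjusted p = 0.109). Adding the reads of the pseudogene symbol KRT8P41, a setting chosen after seeing the data, moved the log2 ratio of mean RPF levels from -1.21 to -1.13.

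KRT7, the second type II keratin, lies on chromosome 12 at 52626304 to 52645970, plus strand. It was a low-level mRNA, at 3.53, 3.17 and 2.44 CPM in Pro and 3.48, 3.50 and 3.20 CPM in Sen. The ranges overlapped and the change was 0.17 ± 0.20 (edgeR adjusted p = 0.454). Footprints numbered 0, 4 and 1 in Pro and 4, 1 and 0 in Sen, a summed ratio of Sen to Pro of 1.17 with a counting interval of 0.270 to 5.10. A difference was therefore not detectable at this depth.

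KRT34, the hair keratin, lies on chromosome 17 at 39533921 to 39538558, minus strand. The mRNA measured 0.487, 0.428 and 0.843 CPM in Pro and 5.70, 6.64 and 6.86 CPM in Sen. The reads behind these numbered 4, 5 and 9 in Pro and 54, 91 and 75 in Sen. The groups stood far apart, and the fitted change was 3.43 ± 0.26 on the log2 scale, past the threshold. The gene passed the low-count filter (0.925 CPM in 3 libraries) only through the Sen libraries, where it is high, so its p is not given as support. The ratio of summed reads was 10.95, with a counting interval of 6.77 to 18.8. Footprints numbered 0, 1 and 0 in Pro and 6, 0 and 2 in Sen. Their ratio was 9.38, with a counting interval of 1.26 to 416.3. Both intervals cover counting error only and are not a test. Whether the RPF level rose by as much as the mRNA level cannot be read from 9 footprints.

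The 3 hair keratins that share most coding windows with KRT34 had few RNA-seq reads. KRT33B had 2, 0 and 0 RNA-seq reads in Pro and 10, 15 and 7 in Sen. KRT33A had 2, 1 and 1 in Pro and 6, 7 and 6 in Sen, and KRT31 had 0 reads in Pro and 5 in Sen. These 3 genes did not pass the filter on low counts and were named after their values were seen. Reads of KRT34 and of its 3 relatives cannot be fully told apart where their sequences are identical.

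The 5 keratins were next set against each other. Levels were divided by length, so that a longer gene gains no share by its length alone. The length was that of the annotated mRNA for RNA-seq and of the CDS for Ribo-seq. For RPF the result is a density of footprints and not a number of molecules. KRT18 made up 85.8 to 86.5% of keratin mRNA in Pro and 88.1 to 90.5% in Sen, and 66.1 to 79.7% of keratin RPF in Pro and 85.9 to 94.5% in Sen. KRT19 took 4.30 to 5.02% of keratin mRNA in Pro and 0.288 to 0.577% in Sen. KRT34 took 0.123 to 0.227% in Pro and 1.89 to 2.45% in Sen, so in senescent cells the hair keratin stood above KRT19 in mRNA. Of keratin RPF, KRT8 took 15.7 to 19.2% in Pro and 4.63 to 12.1% in Sen.

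**Figure D2:**
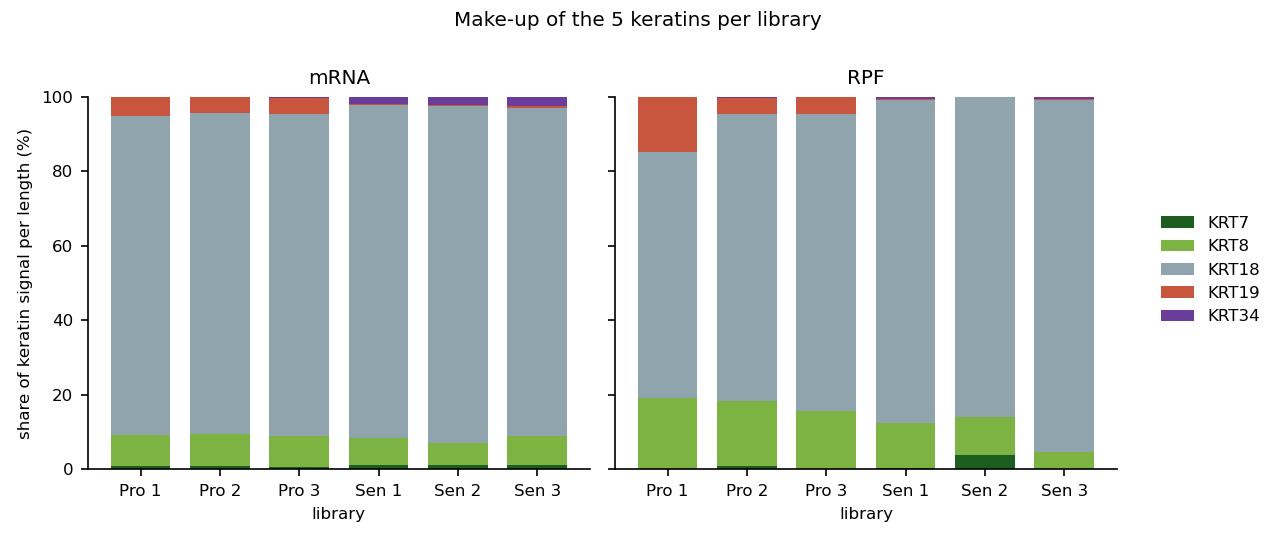
Share of each of the 5 keratins in their summed level per length, in percent, for each library, with mRNA on the left and RPF on the right. KRT18 is the largest share in all 12 libraries, KRT19 is visible in Pro and all but gone in Sen, and KRT8 takes a smaller share of RPF in Sen (4.63 to 12.1%) than in Pro (15.7 to 19.2%).

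Because keratins pair one to one, the log2 ratio of type II (KRT7 and KRT8) to type I (KRT18, KRT19 and KRT34) levels per length was computed for each library. For mRNA it was -3.33, -3.28 and -3.34 in Pro and -3.46, -3.75 and -3.36 in Sen. Type I mRNA thus exceeded type II mRNA 9.69- to 10.1-fold in Pro and 10.3- to 13.5-fold in Sen. For RPF the ratio was -2.07, -2.16 and -2.42 in Pro and -2.81, -2.61 and -4.37 in Sen, an excess of type I of 4.21- to 5.36-fold in Pro and 6.10- to 20.6-fold in Sen. The states did not overlap in either layer, and the difference of means was -0.21 for mRNA and -1.04 for RPF. The RPF ratio of Sen 2 rests on 3 KRT8 footprints and 1 KRT7 footprint, and that of Pro 1 on 10 KRT8 footprints. Sen 3, with 21 KRT8 footprints, lay farthest out (SD of Sen 0.96). The difference without Sen 3 was not computed. No test was made of these ratios, since KRT19 enters them. Without KRT34 the mRNA ratios of the states overlapped. The size of the excess depends on how KRT8 is counted. Its mRNA level leaves out 163 to 246 RNA-seq reads per library in a read class named transcript, where KRT18 had 0. With the median coding isoform KRT8 RPF in Pro was 172.7 CPM per kb in place of 97.8. Neither was carried into the ratios.

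Vimentin lies on chromosome 10 at 17270240 to 17279592, plus strand. Its mRNA amounted to 3686, 3873 and 3980 CPM in Pro and 4125, 4090 and 4283 CPM in Sen. All Sen libraries lay above all Pro libraries, and the means differed 1.08-fold. The change of 0.12 ± 0.07 did not pass the threshold (edgeR adjusted p = 0.159), and it passed in 4 of 13 other settings, as with DESeq2 (adjusted p = 0.0647) or without Pro 3 or Sen 2 (edgeR adjusted p = 0.135 and 0.115). Its RPF level was 8267, 6768 and 7323 CPM in Pro and 9076, 6796 and 8884 CPM in Sen, with overlapping ranges and a change of 0.16 ± 0.19 (edgeR adjusted p = 0.505). Without the shallow lysates the RPF change was 0.34 and passed (edgeR adjusted p = 0.00612), as it did without Sen 2 alone (0.29, edgeR adjusted p = 0.149). The TE change was 0.04 ± 0.19 (edgeR adjusted p = 0.929). Ranked by level per length, VIM stood 17th of 12340 genes in Pro and 16th in Sen for mRNA, and 9th and 8th of 7345 genes for RPF.

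Nestin lies on chromosome 1 at 156638555 to 156647199, minus strand, and was the member that rose in both fitted layers. Its mRNA level was 65.3, 81.2 and 103.1 CPM in Pro and 175, 190 and 194 CPM in Sen. Its RPF level was 224, 149 and 183 CPM in Pro and 391, 459 and 581 CPM in Sen, from 13, 101, 309, 585, 26 and 298 reads. In both layers every Sen library exceeded every Pro library. The mRNA rose by 1.16 ± 0.11 (edgeR adjusted p = 7.77e-09) and the RPF by 1.45 ± 0.17 (edgeR adjusted p = 4.95e-10), and the calls held in all 13 other settings for mRNA and all 12 for RPF. TE was 1.83, 0.88 and 0.83 in Pro and 1.16, 1.30 and 1.58 in Sen, and only the shallow lysate Pro 1 kept the states from separating. The TE change of 0.44 ± 0.18 fell just short of the threshold (edgeR adjusted p = 0.159), and it passed without Pro 1 (0.107), without both shallow lysates (0.076) and with CDS reads alone as the mRNA measure (0.146). NES is also the member with no shared windows.

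**Figure D3:**
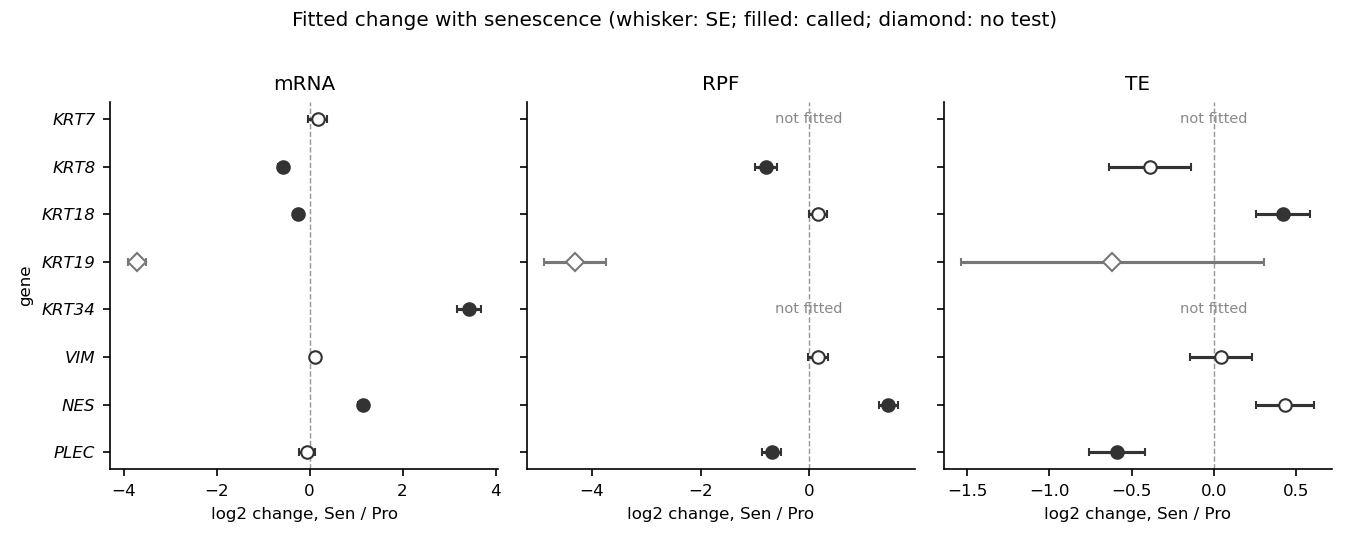
Fitted log2 change of Sen over Pro for each gene in mRNA, RPF and TE, with the SE as whiskers and a separate axis for each layer. Filled circles passed the adjusted p of 0.15, open circles did not, and the open diamond is KRT19, which was not tested. NES lies to the right in all panels (0.44 for TE, not called), and PLEC lies at -0.05 for mRNA but at -0.69 for RPF.

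The order of the members by level per length was also compared. For mRNA in Pro it ran from VIM (1786 ± 69.3 CPM per kb, SD, n = 3) through KRT18 (192 ± 7.08), PLEC (21.1 ± 7.69), KRT8 (18.5 ± 0.431), NES (14.9 ± 3.41), KRT19 (10.2 ± 1.19) and KRT7 (1.87 ± 0.344) to KRT34 (0.358 ± 0.137). PLEC, KRT8 and NES did not differ beyond their spread. In Sen, NES stood after VIM and KRT18 at 33.5 ± 1.77 CPM per kb, above PLEC (20.4 ± 4.61) and KRT8 (12.4 ± 1.43), and KRT34 (3.92 ± 0.378) stood above KRT7 (2.09 ± 0.103) and KRT19 (0.752 ± 0.229). For RPF in Pro the order was VIM (5331 ± 542), KRT18 (415 ± 27.1), KRT8 (97.8 ± 13.2), PLEC (55.5 ± 9.17), KRT19 (44.9 ± 35.7) and NES (38.1 ± 7.71), where KRT19 overlapped both PLEC and NES. In Sen it was VIM (5902 ± 905), KRT18 (435 ± 133), NES (98.1 ± 19.8), KRT8 (42.4 ± 20.7), PLEC (36.3 ± 8.72) and KRT19 (0.913 ± 0.831), with KRT8 and PLEC overlapping. For RPF nestin stood below KRT8 in Pro and above it in Sen, while for mRNA the 2 overlapped in Pro. The order in Pro depended on the gene model. With the median coding isoform KRT19 stood at 19.4 CPM per kb for mRNA, above KRT8 and NES, and at 91.5 for RPF, above PLEC (57.1), with KRT8 RPF at 172.7. In Sen that isoform put KRT8 RPF at 74.8, nearer to NES at 98.1. Whether those 2 genes still stood apart beyond their spread was not computed.

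Read positions within a gene were given as shares of the reads that make up its mRNA level. In RNA-seq the CDS held 82.2 to 88.3% of VIM reads, 77.6 to 84.4% of KRT8 reads, 87.2 to 89.8% of NES reads and 86.4 to 90.9% of PLEC reads over all 6 libraries. In Ribo-seq the CDS held 92.9 to 100% of NES reads and 98.7 to 100% of KRT8 reads. The states overlapped in the CDS share of all 8 genes except KRT7 in RNA-seq, with 89.7 to 94.6% in Pro and 95.8 to 100% in Sen, and NES in Ribo-seq, where all Pro libraries were at 100%. How often the states separate in this share over all genes was not computed, so no result is read from these exceptions. The KRT7 shares rest on 26 to 48 reads per library. Pooled over 3 libraries the KRT7 shares were 93.5% (95% Wilson interval 86.5 to 96.98) and 97.4% (92.7 to 99.1), which overlap. With all read classes as the total the KRT7 order turned, to 72.7 to 85.4% in Pro and 62.6 to 66.4% in Sen, because 2 to 7 reads per library in Pro and 18 to 21 in Sen lay in a class named transcript. For KRT8, which had 163 to 246 such reads per library, the CDS share of all reads was 41.4 to 49.4%. The pooled PLEC share of RNA-seq reads in the CDS was 89.6% in Pro (Wilson interval 89.03 to 90.2) and 87.5% in Sen (86.8 to 88.1), and in the 3′ UTR 9.42% (8.86 to 9.999) and 11.9% (11.3 to 12.6). These intervals do not overlap, but they cover counting error only, and the libraries of the states did.

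Plectin is encoded by 14052 nt of CDS on the minus strand of chromosome 8, from 144989321 to 145050902. Its mRNA level was 197, 340 and 429 CPM in Pro and 297, 250 and 388 CPM in Sen, and the ranges overlapped widely. The change was -0.05 ± 0.18 (edgeR adjusted p = 0.803), and its sign depended on the libraries, at 0.21 without Pro 3, 0.09 without Sen 2 and -0.30 without Pro 1, where it passed (edgeR adjusted p = 0.0478). Its RPF level was 706, 704 and 928 CPM in Pro and 386, 512 and 631 CPM in Sen, from 41, 477, 1565, 578, 29 and 324 reads. Every Sen library lay below every Pro library, and the RPF fell by 0.69 ± 0.17 on the log2 scale (edgeR adjusted p = 0.00113). Without Pro 3 the RPF change was -0.48 (edgeR adjusted p = 0.151) and without Sen 1 it was -0.43 (edgeR adjusted p = 0.201).

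TE of PLEC was 1.86, 1.05 and 1.11 in Pro and 0.38, 1.06 and 0.71 in Sen. Sen 2 lay between Pro 2 and Pro 3, and the other Sen lysates lay below all Pro lysates. The TE change was -0.59 ± 0.17 (edgeR adjusted p = 0.0415). The call was lost without Pro 2 (edgeR adjusted p = 0.199), Pro 3 (0.211), Sen 1 (0.519) or Sen 3 (0.201), and with DESeq2 (adjusted p = 1), while the change stayed between -0.73 and -0.42. Footprints per mRNA per length, from reads summed over the 3 libraries of a state, were ranked among 7333 genes with an annotated length. PLEC stood at the 67.1 percentile in Pro and at the 32.0 percentile in Sen. The deepest libraries weigh most in these sums. Pro 3 held 1565 of 2083 PLEC footprints in Pro, and Sen 1 held 578 of 931 in Sen.

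The other plakins and hemidesmosome parts formed a list of 10 genes, of which 6 were tested for mRNA and 5 for RPF. EPPK1, EVPL, ITGB4 and COL17A1 passed the low-count filter in neither layer. For mRNA, 4 rose and 2 fell, and for RPF 3 rose and 2 fell, beside 73.4% and 54.3% called over all genes. The medians were 0.36 and 0.94, beside -0.01 and 0.01 over all genes. Desmoplakin (DSP), which anchors keratins at desmosomes, was at 3.61 CPM in Pro and 20.8 CPM in Sen, a change of 2.50 ± 0.14 (edgeR adjusted p = 4.08e-12), with an RPF change of 2.30 ± 0.39 that entered the fit only through Sen. Periplakin (PPL) was at 3.01 CPM in Pro and 0.381 CPM in Sen, a fitted change of -3.00 ± 0.42, and passed the low-count filter only through Pro. ITGA6, the laminin receptor chain of hemidesmosomes, rose by 1.51 ± 0.07 in mRNA and 1.04 ± 0.19 in RPF (edgeR adjusted p = 2.65e-13 and 7.48e-06). The tetraspanin CD151 rose by 0.40 ± 0.07 in mRNA and 0.94 ± 0.16 in RPF (edgeR adjusted p = 5.3e-05 and 5.51e-06).

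In TE, 1 gene of this list rose (CD151, 0.55 ± 0.17, edgeR adjusted p = 0.0561) and 2 of 5 fell, beside 9.65% called over all genes, and DESeq2 called 0 of 5. The 2 that fell were dystonin (DST, -0.93 ± 0.19, edgeR adjusted p = 0.00172) and MACF1 (-0.91 ± 0.17, edgeR adjusted p = 0.000196), giant plakins that link filaments or actin to microtubules, and both are named here after their values were seen. The RPF of DST changed by -1.33 ± 0.19 and its mRNA by -0.25 ± 0.12, and MACF1 changed by -0.68 ± 0.16 in RPF and 0.32 ± 0.09 in mRNA. DSP was at -0.11 ± 0.46 (edgeR adjusted p = 0.929) and did not pass.

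These genes are also among those with the longest coding sequences, and TE change varied with coding length over all genes. A split by length made after the values were seen gave a median TE change of 0.02 for 2216 genes under 1000 nt, 0.05 for 2665 genes from 1000 to 2000 nt, -0.02 for 1791 genes up to 4000 nt, -0.10 for 546 genes up to 8000 nt and -0.28 for 115 genes of 8000 nt or more. In the last group 88 of 115 genes were below 0, and edgeR called 17 lower and 0 higher, with 3 higher at an unadjusted p under 0.05 and 0 higher by DESeq2. Within it PLEC lay below 86 of 115 genes, DST below 106 and MACF1 below 105. PLEC is thus at about the lower quartile of genes of its length class (-0.59). The part of length in the PLEC change was not tested.

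**Figure D4:**
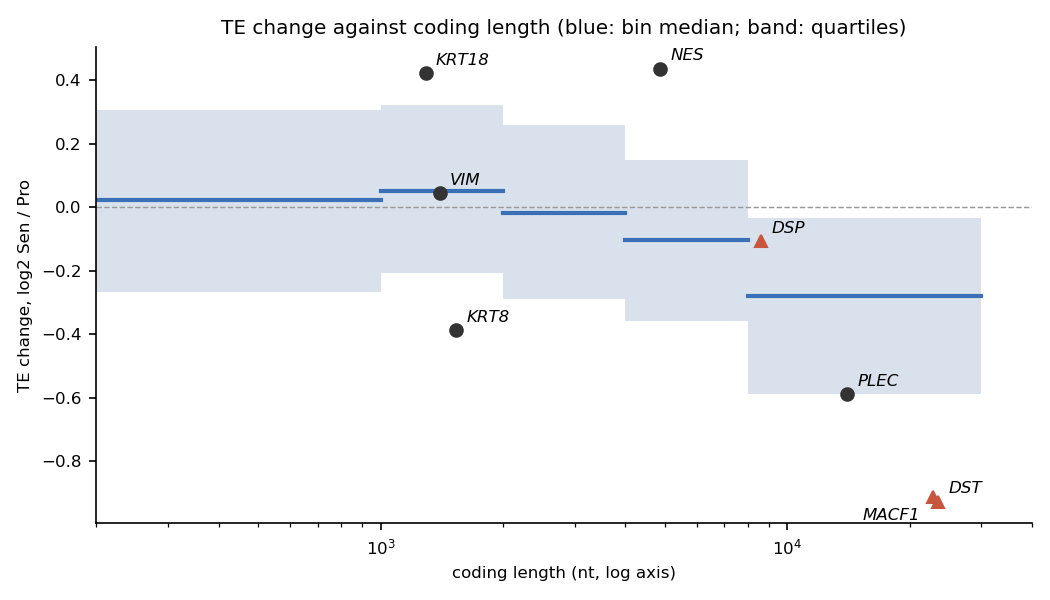
TE change (log2 Sen over Pro) against coding length in nt on a log axis, with the median (blue line) and quartiles (band) of all fitted genes in 5 length bins. Black circles are the 5 fitted members other than KRT19, and red triangles are the other plakins. The bin median goes from 0.05 at 1000 to 2000 nt to -0.28 at 8000 nt or more, and DST and MACF1 lie below the band.

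Of the 46 other keratin genes, 20 had no RNA-seq read in any library, 11 had 1 to 3 reads in all, and only 3 were tested for mRNA. KRT15, a basal cell keratin, rose by 2.35 ± 0.24 (edgeR adjusted p = 3.96e-08), from 1.01 to 5.24 CPM. KRT80, a type II keratin, rose by 1.35 ± 0.15 (edgeR adjusted p = 8.68e-08), from 7.28 to 18.1 CPM. KRT10 was at 51.7 CPM in Pro and 49.1 CPM in Sen (edgeR adjusted p = 0.514). None of the 46 was fitted for RPF.

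Of the 9 other type III and IV genes, 6 were tested for mRNA, of which 1 rose and 2 fell. Over all genes 73.4% were called for mRNA and 54.3% for RPF. Internexin (INA), a neuronal filament protein, rose by 0.51 ± 0.11 (edgeR adjusted p = 0.000289). NEFH, the heavy neurofilament chain, fell by 0.84 ± 0.16 on the log2 scale (edgeR adjusted p = 0.000133), and syncoilin (SYNC) fell by 0.56 ± 0.08 (edgeR adjusted p = 1.39e-06). In RPF 3 were tested and SYNC alone was called, at -0.85 ± 0.24 (edgeR adjusted p = 0.00353). The list medians were 0.05 for mRNA and 0.17 for RPF. In TE edgeR called 0 of 3, beside 9.65% over all genes, with 0 also at an unadjusted p under 0.05 and 0 by DESeq2.

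Desmosome genes numbered 11, with 6 tested for mRNA (3 higher, 1 lower) and 3 for RPF (1 higher, 1 lower). Their medians were 0.33 and -0.63, where 73.4% and 54.3% of all genes were called. Plakophilin 2 (PKP2) was at 1.05 CPM in Pro and 10.8 CPM in Sen, a fitted change of 3.40 ± 0.21. PKP3 had a fitted change of 0.91 ± 0.32, at levels of 0.946 and 1.92 CPM. Both met the low-count filter in 3 Sen but only 2 Pro libraries, so their p is not given as support. Plakoglobin (JUP) rose by 0.81 ± 0.09 in mRNA and 1.14 ± 0.19 in RPF (edgeR adjusted p = 8.18e-08 and 2.8e-06). PKP4 fell by 0.16 ± 0.07 in mRNA and by 0.97 ± 0.35 in RPF (edgeR adjusted p = 0.0656 for mRNA). Its RPF met the filter in 3 Pro but only 2 Sen libraries, so that p is not given. In TE edgeR called none of the 3 fitted genes, beside 9.65% called over all genes, with adjusted p from 0.153 to 0.682. At an unadjusted p under 0.05 it was 1 gene, and DESeq2 called 0.

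Keratins and vimentin are the usual markers of the switch between epithelial and mesenchymal states, and 14 genes of that switch were examined. For mRNA 10 were tested, with 2 higher and 5 lower, and for RPF 5, with 1 higher and 3 lower. Medians were -0.09 and -0.44, and over all genes 73.4% and 54.3% were called. TWIST1, a mesenchymal transcription factor, fell by 1.39 ± 0.11 on the log2 scale, from 28.3 to 10.8 CPM (edgeR adjusted p = 5.59e-10), and TWIST2 fell by 0.50 ± 0.11 (edgeR adjusted p = 0.000372). ZEB1 rose by 0.49 ± 0.07 in mRNA (edgeR adjusted p = 2.32e-06), with an RPF change of -0.09 ± 0.19 that did not pass. ESRP2, an epithelial splicing factor, fell by 0.29 ± 0.12 (edgeR adjusted p = 0.0337). In TE edgeR called 1 of 5 higher and 2 lower, beside 9.65% called over all genes, and DESeq2 called 0.

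Of 18 filament kinases and assembly partners, 16 were tested for mRNA (4 higher, 7 lower) and 15 for RPF (2 higher, 7 lower). The shares called over all genes were 73.4% and 54.3%, and the list medians were -0.12 and -0.28. The mitotic kinases that phosphorylate vimentin fell most. AURKB changed by -2.32 ± 0.13 in mRNA and -2.90 ± 0.40 in RPF (edgeR adjusted p = 2.4e-12 for mRNA), and its RPF passed the low-count filter only through Pro. PLK1 changed by -2.05 ± 0.10 and -1.36 ± 0.24 (edgeR adjusted p = 1.97e-13 for mRNA). The RPF of PLK1 met the filter in 3 Pro but only 2 Sen libraries, so that p is not given. CDK1 changed by -1.52 ± 0.12 and -1.82 ± 0.23 (edgeR adjusted p = 3.99e-10 and 1.84e-09). PAK1 rose by 0.36 ± 0.09 in mRNA (edgeR adjusted p = 0.0017). In TE edgeR called 1 of 15 higher and 1 lower, beside 9.65% called over all genes, and DESeq2 called 0.

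The 3 genes with the pattern nearest to KRT18 were QARS at a distance of 0.305, URM1 at 0.364 and GTPBP4 at 0.369, where the median gene lay at 1.65. VIM was at rank 244 of the other 7511 genes with 0.710, and the partner KRT8 was at rank 4760 with 2.04. The KRT18 and KRT8 patterns over the 12 libraries were thus farther apart than KRT18 was from most genes. All libraries weigh the same in this distance, and KRT8 had only 10 footprints in Pro 1, 3 in Sen 2 and 21 in Sen 3. The part of counting noise in the distance was not tested.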

How the data were processed

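Reads of 12 libraries were analysed, with 3 replicates in each of 4 groups. The submitters' processing notes name cutadapt 1.18, Bowtie 1.0.1, SAMtools 1.8 and DESeq2 1.22.2. The genome build, annotation, strand rule and treatment of multiply placed reads were not given in the sources used here. The unit of the deposited values was the expected count of reads by region and gene, since most were whole and the rest simple fractions (12.1 to 22.7% of nonzero Ribo-seq CDS values were not whole). They were summed over regions and rounded, where whole counts had been planned for. The authors made no scaling to depth in these tables.

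The main test was edgeR's quasi-likelihood F test (version 4.0.16, R 4.3.3) on genes kept by filterByExpr, with TMM factors within library type and Benjamini-Hochberg adjustment over all genes, two-sided. The TE test was the interaction of library type and state over 12 libraries, with the lysate as a block. The threshold of 0.15 follows the published false discovery rate. The fits were also run on simulated data, in which all genes of a layer had the same spread and lysates were not paired. That run does not show how firm the TE calls are, and its outcome is not used here. Each lysate gave RNA (15% of it) and footprints, which pairs the 2 library types. Annotation and sequences came from GENCODE on GRCh37 and are not necessarily the authors' gene models. The shared stretch of KRT8 is not reported here. Intervals (Wilson, or exact for ratios) and floors of 3 counts cover counting error only, as PCR copies are not independent molecules.

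Members, lists and tests were chosen with earlier results of these data known. Named genes were all members, up to 4 called genes per list by absolute mRNA change, and the 3 genes nearest to KRT19 and KRT18 (KRT34 was not fitted for RPF). Alternatives were RLE factors, library totals, a filter of 1 read, DESeq2 1.42.0, each replicate or both shallow lysates left out, replicate blocks, CDS reads for mRNA, other isoform lengths and other totals.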

Additional observations from a re-analysis of the deposited data

Results flagged for a closer look

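Reads were also found under symbols or in read classes that entered no comparison, above the limit of 3 counts. The symbol VIM-AS1, an opposite-strand gene that shares 656 nt of exon with VIM, held 88238 RNA-seq reads over 6 libraries, or 29.7 to 38.9% of the VIM mRNA reads, but only 4 Ribo-seq reads. Without a stated strand rule, reads of VIM and VIM-AS1 cannot be told apart where their exons overlap. Adding them moved the log2 ratio of mean VIM mRNA levels from 0.12 to 0.14.

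KRT7-AS, opposite to KRT7, held 100.8 RNA-seq reads in all and no footprint. It held 20.5 to 32.7% of the KRT7 reads in Pro and 56.4 to 81.0% in Sen. With its reads added, the log2 ratio of mean KRT7 mRNA levels was 0.55 in place of 0.16.

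The pseudogene symbol KRT18P55 held 1413.6 RNA-seq reads and 726 footprints, and KRT8P41 held 98.2 RNA-seq reads and 228.7 footprints. With KRT18P55 reads added, the log2 ratio of mean KRT18 RPF levels was 0.19 in place of 0.07, and that of mRNA was -0.24 in place of -0.25. For KRT8 with KRT8P41 the mRNA ratio stayed at -0.57.

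In a read class named transcript, which was not part of the mRNA level, the symbol KRT8 held a further 1194.5 RNA-seq reads, with 181 to 246 per library in Pro and 163 to 239 in Sen. KRT7 held 73 such reads, with 2 to 7 per library in Pro and 18 to 21 in Sen.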

How the results depend on the processing

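Fold changes of the members were refitted 254 times under other settings, and 220 kept their direction and their side of the threshold (for KRT19, stayed within the replicate SD). Direction reversed 5 times, for PLEC mRNA without Pro 3 (0.21) and Sen 2 (0.09), and for VIM TE without Pro 2 (-0.05), Sen 1 (-0.057) and Sen 3 (-0.02). With 1 replicate left out the range was -0.30 to 0.21 for PLEC mRNA and -0.057 to 0.16 for VIM TE. These were changes that had not been called. The number of genes called for RPF was 4106, against 1160 with DESeq2, 2400 with a replicate block and 2705 to 4593 with 1 replicate left out, lowest without Sen 1. For TE it was 725, against 436 with a filter of 1 read, 26 with DESeq2, 1212 without the shallow lysates, 1390 with no replicate block and 125 to 1141 with 1 replicate left out. Members called numbered 3 for RPF, 2 to 4 with 1 replicate left out and 5 without the shallow lysates. For TE they numbered 2, 1 with RLE factors, 1 with the filter of 1 read, 0 with DESeq2 and 0 to 2 with 1 replicate left out, with 0 without Pro 2, Pro 3 or Sen 3. The cause was not tested.

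Replicate numbers are shared between states, but same-numbered libraries deviated together with r of only -0.07 to 0.09, so they were not treated as paired. The mRNA and RPF of the same lysate deviated together with r of -0.05 to 0.07, which is no higher. The lysate block in the TE test therefore rests on the protocol and not on these values. The replicate block moved KRT19 RPF to -5.50 and changed no call of a member in mRNA or RPF. Levels per length with the median coding isoform moved by more than the replicate SD in 10 of 32 cases, all of KRT8, KRT19 or VIM, and CDS shares with all read classes as the total moved in 5 of 27. Depth limits the footprint values of KRT7, KRT19 and KRT34 most.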
